A study of Ovis aries with 18 samples.

Results

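The miR-26 family was described here from its 2 named features, oar-miR-26a and oar-miR-26b, taken by name from the 364 miRNA features counted in sheep plasma. Both were among the 168 features that passed the filter on low counts. The study compared ewes made obese with ewes kept lean while leptin resistance developed. All were ovariectomized female Polish Longwool sheep that carried estradiol implants. OBESE ewes were fed a high-fat diet for 14 weeks and CTRL ewes a standard diet, 6 animals per diet. Blood was drawn at weeks 7, 10 and 14, and each of the 6 groups of diet and week is represented by 3 libraries of plasma small RNA. Ages, and whether a library stands for a single ewe or for pooled plasma, are not given in the labels. The same ewe may therefore stand behind several libraries of a diet, and p-values measure only how far these libraries scatter, which may be in part technical.

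miR-26a and miR-26b are closely similar miRNAs that share their seed, the stretch near the 5′ end that pairs with target messenger RNAs, and are therefore thought to act on overlapping sets of targets. In mammals they lie in introns of the CTDSP phosphatase genes and are made together with them. In mice and in human fat cells the family has been tied to the differentiation of fat cell precursors, to the burning of fat by adipocytes and to insulin action in the liver. In plasma, miRNAs travel in vesicles and protein complexes released by many tissues and by blood cells, and neither the source of a molecule nor the difference between fewer cells and less RNA per cell can be read from these libraries.

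Each feature matched 1 gene by name in RefSeq's annotation of ARS-UI_Ramb_v3.0, a sheep assembly. MIR26A lies within the span of the protein-coding gene CTDSP2, and MIR26B within that of CTDSP1. A match by name does not show from which gene the counted reads came. No other feature of the files had counts near-identical to either, that is, a mean absolute log2 difference under 0.1 over the 18 libraries.

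Depth ranged from 388574 to 1269829 counts per library. miR-26a was counted 456 to 1818 times and miR-26b 750 to 4268 times. If each count is a separate molecule, counting alone gives relative errors of 2.35% to 4.68% and 1.53% to 3.65%, well under the spread between libraries. Whether the counts are deduplicated is not given in the sources used here. A pair of CTRL libraries, replicate 1 of week 7 and replicate 3 of week 14, stood apart in composition, with scaling factors of 0.653 and 0.718 where the highest was 1.19. Levels are given as CPM, counts per 1000000 after scaling by the trimmed mean of M values (TMM). Over all tested features the median diet difference was 0.16 on the log2 scale without that scaling and -0.00216 with it. Other blood-derived miRNAs were present. Of 9 listed red blood cell miRNAs, 3 were named in the files (miR-16b, miR-25 and miR-106b; miR-451, miR-486 and miR-144 were not analysed here). Their summed level lay between 359498 and 579076 CPM in OBESE plasma and between 397546 and 829263 CPM in CTRL plasma. Of 6 platelet miRNAs, 3 were named, summing to 24797 to 56044 CPM in OBESE plasma and 28855 to 44491 CPM in CTRL plasma. The white blood cell, muscle and liver lists had 1 named member each. miR-150 lay between 2816 and 26790 CPM in OBESE plasma and between 2364 and 12949 CPM in CTRL plasma. miR-133 lay between 7.68 and 41.4 CPM in OBESE plasma and between 2.38 and 127 CPM in CTRL plasma. miR-194 lay between 39.0 and 147 CPM in OBESE plasma and between 29.7 and 109 CPM in CTRL plasma. The part of these cells in the results below was not tested.

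The plasma libraries held more miR-26b than miR-26a. miR-26b averaged 2551 ± 691 CPM and miR-26a 1367 ± 289 CPM (SD, n = 18), which placed them 20th and 29th among the 168 tested features and 13th and 16th among the 54 tested features with a miRNA name. By mean level miR-26b stood between unnamed miRNA 6 (2729 CPM) and let-7d (2402 CPM), and miR-26a between unnamed miRNA 17 (1418 CPM) and miR-25 (1345 CPM), where unnamed features are given by the running number of the files. Together the pair took 0.398% ± 0.102 of all counts (SD, n = 18), 0.432% ± 0.0759 in OBESE plasma and 0.365% ± 0.117 in CTRL plasma (SD, 9 libraries each). The exception to the order was OBESE week 14 replicate 2, the 1 library of 18 with more miR-26a (1293 counts) than miR-26b (1235 counts). Since library kits can capture miRNAs with unequal efficiency, the relative level of the pair describes these libraries.

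miR-26a, the better studied member in fat and liver, was the more even of the pair and had higher mean levels in OBESE plasma at each of the 3 weeks. At week 7 it stood at 1111, 1315 and 1883 CPM in OBESE replicates 1, 2 and 3, against 1110, 1116 and 1385 CPM in CTRL replicates 1, 2 and 3. At week 10 the values were 1349, 1243 and 1748 CPM in OBESE plasma and 1088, 1299 and 1048 CPM in CTRL plasma. At week 14 they were 1433, 2100 and 1477 CPM in OBESE plasma and 1218, 1473 and 1206 CPM in CTRL plasma. In these scaled levels the diets overlapped at each week: 8 of 9 OBESE libraries lay above the CTRL median of 1206 CPM, and 4 of 9 lay above the highest CTRL library. As unscaled shares of all counts the diets did not overlap at week 14, with 0.157% to 0.207% in OBESE and 0.0865% to 0.153% in CTRL. Without scaling, the median diet difference over all tested features at week 14 was itself 0.147 on the log2 scale. The lowest CTRL share, 0.0865%, came from replicate 3, a library that stood apart in composition. How many other features separate without scaling was not counted. In scaled levels the OBESE libraries were also the more scattered, with a coefficient of variation of 21.4% over 9 libraries against 11.9% in CTRL. For unscaled shares of all counts the order was reversed, with 17.1% in OBESE and 23.0% in CTRL. The difference in scatter thus depended on the scaling and was not tested.

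**Figure D1:**
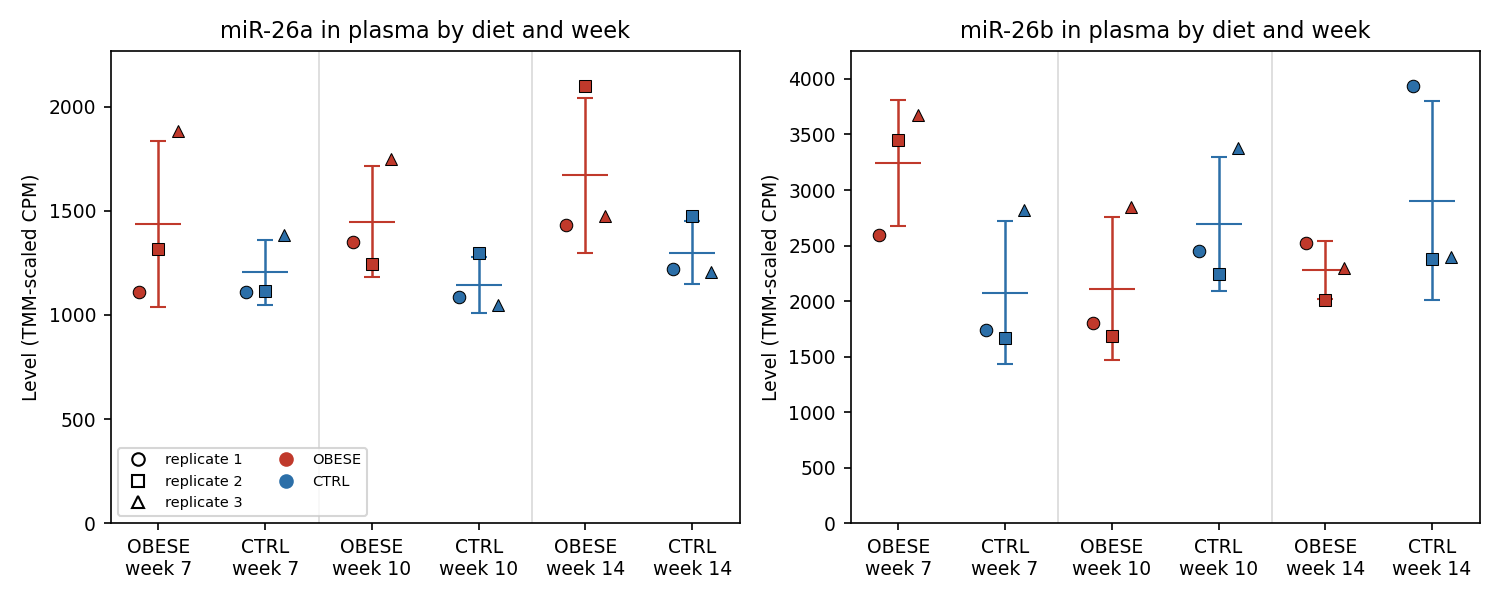
Levels of miR-26a (left) and miR-26b (right) in TMM-scaled CPM (vertical axes) for the 6 groups of diet and week; points are libraries, marked by replicate, and bars are the group mean ± SD (n = 3). miR-26a lies higher on average in OBESE at each week with overlapping groups, while the mean of miR-26b is higher in OBESE at week 7 (3242 CPM against 2076 CPM in CTRL) and lower at weeks 10 and 14.

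Averaged over the weeks, the mean level of miR-26a was 1518 ± 325 CPM in OBESE plasma and 1216 ± 145 CPM in CTRL plasma (SD, 9 libraries each), a fitted log2 fold change of 0.32 (SE 0.132, 95% interval 0.04 to 0.60), or 1.25-fold. Its unadjusted p from edgeR's quasi-likelihood test was 0.0271 and its adjusted p over the 168 features was 0.285, so the difference did not pass. That fit treats the weeks as independent: the unadjusted p was 0.0755 in limma-voom with replicate number within diet as a random block (log2 fold change 0.30, SE 0.158) and 0.0712 in edgeR on counts summed over weeks (0.34, SE 0.164). Of all tested features 0% were called at an adjusted p of 0.05 for this comparison, and 11.3% (19 of 168) had an unadjusted p under 0.05, among which miR-26a ranked 16th. DESeq2 called 2 features and limma-voom 0, neither of them a member of the family. The single weeks gave log2 fold changes of 0.26 (SE 0.228, adjusted p = 0.766), 0.34 (SE 0.228, adjusted p = 0.722) and 0.36 (SE 0.228, adjusted p = 0.782) at weeks 7, 10 and 14 (edgeR). The weekly differences leaned on single libraries. Without OBESE week 7 replicate 3 the week 7 value was 0.00218 and the average over weeks 0.21 (edgeR unadjusted p = 0.133). Without OBESE week 14 replicate 2 the week 14 value was 0.06 and the average 0.19 (edgeR unadjusted p = 0.144). Without the pair of CTRL libraries that stood apart the week 7 value was 0.15.

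Within a diet no change of miR-26a against week 7 passed the test. In OBESE libraries its log2 change was 0.01 (SE 0.228) at week 10 and 0.22 (SE 0.228) at week 14, and in CTRL libraries it was -0.07 (SE 0.228) and 0.11 (SE 0.228). The edgeR adjusted p values of these changes lay between 0.837 and 0.993. The OBESE value at week 14 rested on single libraries: it was 0.47 (SE 0.246, edgeR unadjusted p = 0.0737) without OBESE week 7 replicate 3 and 0.0230 without OBESE week 14 replicate 2. Ordered by mean, its levels ran OBESE week 14 (1670 ± 373 CPM), OBESE week 10 (1447 ± 266), OBESE week 7 (1437 ± 400), CTRL week 14 (1299 ± 151), CTRL week 7 (1204 ± 157) and CTRL week 10 (1145 ± 135; SD, n = 3 each). Every pair of neighbours in this order overlapped.

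miR-26b did not share this pattern. At week 7 it stood at 2599, 3448 and 3678 CPM in OBESE replicates 1, 2 and 3, against 1738, 1669 and 2820 CPM in CTRL replicates 1, 2 and 3. At week 10 it stood at 1804, 1681 and 2851 CPM in OBESE plasma and at 2454, 2246 and 3377 CPM in CTRL plasma. Week 14 brought 2524, 2006 and 2302 CPM in OBESE plasma and 3939, 2378 and 2399 CPM in CTRL plasma. The OBESE mean was thus above the CTRL mean at week 7 and below it at both later weeks. The diets overlapped at every week, at week 7 through CTRL replicate 3, at week 10 through OBESE replicate 3 and at week 14 through OBESE replicate 1. For scale, the diets did not overlap for 8.93% of all tested features at week 7, 13.1% at week 10 and 9.52% at week 14.

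At week 7 the log2 fold change of miR-26b was 0.64 (SE 0.276, 95% interval 0.06 to 1.23), or 1.56-fold, with an edgeR unadjusted p of 0.0324 and an adjusted p of 0.759. It ranked 7th among the 9 features (5.36% of those tested) with an unadjusted p under 0.05 at this week, and 0% were called. One of the CTRL libraries that stood apart in composition is in this comparison, and without that pair the value was 0.48 (SE 0.297, edgeR unadjusted p = 0.129), and the largest value among the fits that left out 1 library was 0.93, without CTRL week 7 replicate 3. At weeks 10 and 14 the log2 fold changes were both -0.35 (SE 0.275, edgeR adjusted p = 0.761 and 0.8), or -0.16 without CTRL week 10 replicate 3 and -0.09 without CTRL week 14 replicate 1. Over all weeks the mean level was 2544 ± 693 CPM in OBESE plasma and 2558 ± 731 CPM in CTRL plasma (SD, 9 libraries each). The averaged log2 fold change was -0.02 (SE 0.159, edgeR adjusted p = 0.969), and it turned to 0.12 without TMM scaling. Its 95% interval, -0.35 to 0.32, is the range of averaged differences that these libraries leave.

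The log2 changes of miR-26b over weeks had opposite signs in the 2 diets. In OBESE libraries it was 0.62 lower on the log2 scale at week 10 than at week 7 (log2 change -0.62, SE 0.276, edgeR unadjusted p = 0.0385, adjusted p = 0.897), where 4.17% of features had an unadjusted p under 0.05. At week 14 the OBESE change was -0.51 (SE 0.276, edgeR adjusted p = 0.69), and the 3 libraries of week 14 lay below the 3 of week 7, a separation seen in 13.7% of all tested features for this pair of groups. In CTRL libraries the changes were 0.38 (SE 0.276, edgeR adjusted p = 0.947) at week 10 and 0.49 (SE 0.276, edgeR adjusted p = 0.963) at week 14. Single libraries moved these sizes but not their signs. The OBESE change at week 10 was -0.37 (edgeR unadjusted p = 0.219) without OBESE week 10 replicate 1 and -0.41 (edgeR unadjusted p = 0.168) without OBESE week 10 replicate 2. The CTRL change at week 10 was 0.19 without CTRL week 10 replicate 3, 0.67 without CTRL week 7 replicate 3 and 0.22 without the pair of CTRL libraries that stood apart. The CTRL change at week 14 was 0.20 without CTRL week 14 replicate 1 and 0.77 without CTRL week 7 replicate 3. Tested as an interaction, the OBESE change minus the CTRL change was -0.99 (SE 0.39, 95% interval -1.82 to -0.17) at week 10 and again -0.99 (SE 0.39, 95% interval -1.82 to -0.17) at week 14. Both intervals exclude 0 and both had an edgeR unadjusted p of 0.0206, but the adjusted p values were 0.669 and 0.41, so neither passed. In both interactions 5.95% of features (10 of 168) had an unadjusted p under 0.05 and 0% were called, and miR-26b ranked 2nd at week 10 and 8th at week 14. Both interactions share the week 7 libraries. The fit treats the weeks as independent, here and for the changes within a diet. For miR-26a the same interactions were 0.08 (SE 0.323) and 0.11 (SE 0.323), with edgeR adjusted p values of 0.981 and 0.987. Leaving out CTRL week 14 replicate 1, which had the highest miR-26b of all libraries, placed the week 14 interaction of miR-26b at -0.72 (edgeR unadjusted p = 0.0738), and leaving out CTRL week 10 replicate 3 placed the week 10 interaction at -0.75 (edgeR unadjusted p = 0.064).

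**Figure D2:**
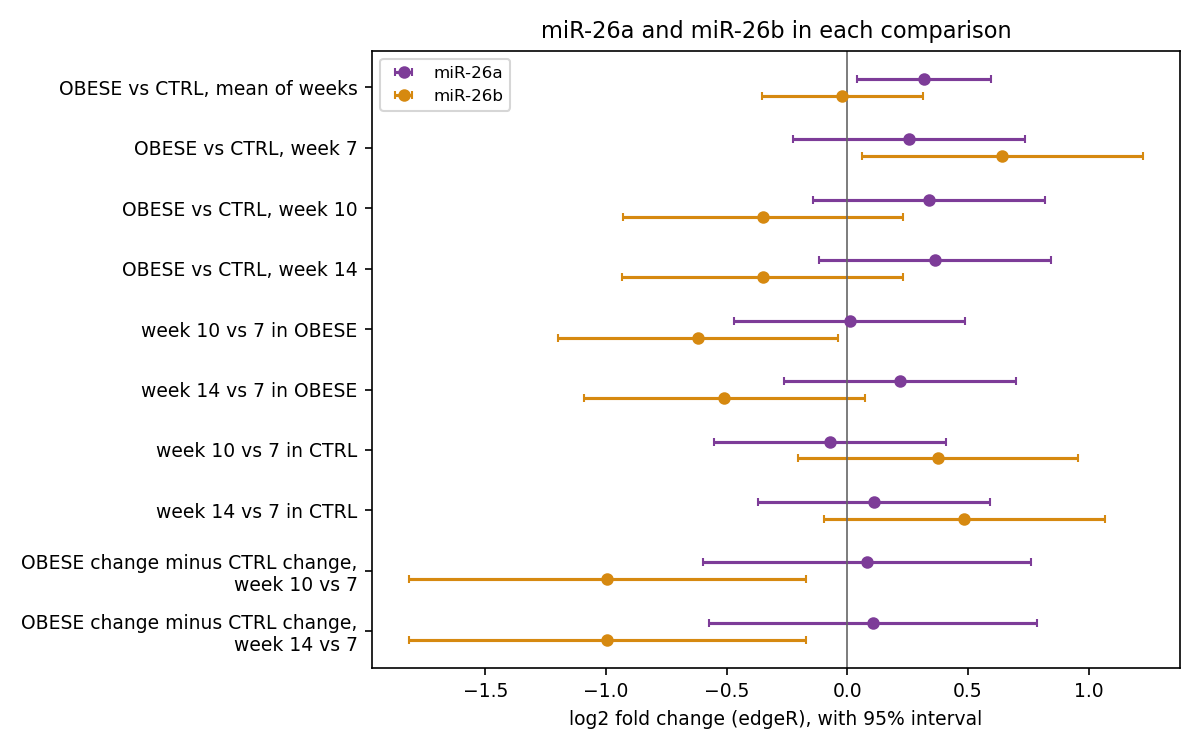
Fitted log2 fold changes (horizontal axis) of miR-26a (purple) and miR-26b (orange) in the 10 comparisons (rows), with 95% intervals from edgeR on all 18 libraries. The intervals of miR-26a exclude 0 only for the diets averaged over weeks, those of miR-26b for the diets at week 7, for OBESE week 10 against week 7 and for both interactions; none passed after adjustment over 168 features, and these intervals treat the weeks as independent.

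Over all groups the order of miR-26b was OBESE week 7 (3242 ± 568 CPM), CTRL week 14 (2905 ± 895), CTRL week 10 (2692 ± 602), OBESE week 14 (2277 ± 260), OBESE week 10 (2112 ± 643) and CTRL week 7 (2076 ± 645; SD, n = 3 each). Neighbours overlapped throughout this order. The week 7 groups of the 2 diets stood at its opposite ends. Across the other 9 comparisons than the averaged diet difference, edgeR, DESeq2 and limma-voom called 0 features each, while 3 to 13 features had an unadjusted p under 0.05 with edgeR.

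The ratio of miR-26a to miR-26b within a library does not depend on depth or on TMM scaling. How reads that fit both miRNAs were assigned is not given in the sources used here, and a shift in that assignment would act on this ratio. At week 7 the ratio was 0.428, 0.381 and 0.512 in OBESE replicates 1, 2 and 3, against 0.639, 0.669 and 0.491 in CTRL replicates 1, 2 and 3. At week 10 it was 0.748, 0.739 and 0.613 in OBESE, against 0.443, 0.578 and 0.31 in CTRL libraries. At week 14 it was 0.568, 1.05 and 0.641 in OBESE, against 0.309, 0.619 and 0.503 in CTRL libraries. OBESE libraries had the lower ratios at week 7, where 2 of 3 lay below every CTRL library, and the higher ones later, where 5 of 6 lay above every CTRL library of the same week. For OBESE week 14 replicate 2 the 95% Wilson interval of the ratio was 0.968 to 1.13. It covers counting error only and takes each count as a separate molecule.

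**Figure D3:**
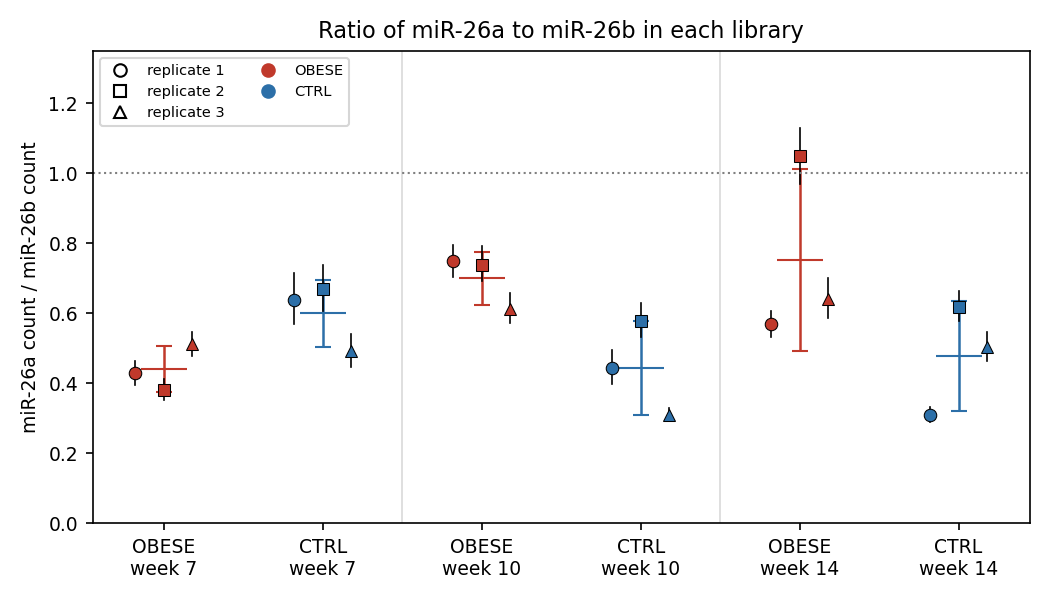
Ratio of miR-26a to miR-26b counts (vertical axis) in each library of the 6 groups; thin black lines are 95% Wilson intervals for counting error, coloured bars the group mean ± SD (n = 3), and the dotted line marks equal counts. OBESE ratios average 0.44 at week 7, 0.7 at week 10 and 0.752 at week 14, and CTRL ratios 0.599, 0.444 and 0.477.

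On the log2 scale the ratio differed between OBESE and CTRL by -0.44 at week 7, 0.70 at week 10 and 0.66 at week 14, that is 0.736-fold, 1.62-fold and 1.58-fold. The exact permutation p values were 0.2, 0.1 and 0.2 (two-sided, n = 3 each), and a design of 3 against 3 cannot go below 0.1, the value at week 10, where no OBESE ratio overlapped a CTRL ratio. Leaving out CTRL week 10 replicate 3 placed the week 10 difference at 0.46 (exact p = 0.2). Leaving out OBESE week 14 replicate 2 or CTRL week 14 replicate 1 placed the week 14 difference at 0.40 or 0.38 (exact p = 0.4 and 0.5). Averaged over weeks the log2 ratio was higher by 0.31 in OBESE (geometric mean ratio 0.605 against 0.489 in CTRL; exact permutation of diet labels within weeks, p = 0.177). Over these 4 comparisons the adjusted exact p was 0.2 for each. Within OBESE the log2 ratio was higher than at week 7 by 0.67 at week 10 and by 0.73 at week 14, each without overlap and at the lowest exact p of 0.1. For scale, the levels of 16.1% and 13.7% of all tested features did not overlap in these comparisons. Between the diets at week 10 this share was 13.1%. Ratios of other miRNA pairs were not examined. Within CTRL it differed from week 7 by -0.47 (exact p = 0.2) and -0.37 (exact p = 0.3).

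The turn of the ratio between weeks was tested after its values had been seen. The diet difference at week 10 minus that at week 7 was 1.14 on the log2 scale, and at week 14 minus week 7 it was 1.10. Exact permutation of diet labels within the weeks (400 assignments, two-sided) gave p values of 0.01 and 0.025. They became 0.06 and 0.075 once adjusted over these 2 tests and the 4 between diets above, so neither passed. The tests of the ratio within a diet were left out of this adjustment, and a wider set would give larger adjusted values. The permuted labels stand for no diet effect at either week, and this test treats the weeks as independent. With replicate numbers taken as the same ewes, each diet gives 3 changes and the exact p was 0.1 for both, the lowest that design allows. Without OBESE week 14 replicate 2 or CTRL week 14 replicate 1 the week 14 value was 0.84 or 0.82, each with an exact p of 0.055. Without both libraries that stood apart it was 1.12, with an exact p of 0.07.

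Across the 18 libraries the levels of the family's members were only weakly related. Pearson's r of log2 CPM was 0.125 (exact permutation within groups, p = 0.285) and Spearman's rho 0.0939 (exact p = 0.403). Leaving out OBESE week 7 replicate 3 and OBESE week 14 replicate 2, the farthest from the median of miR-26a, gave an r of 0.107 and a rho of 0.0559 (exact p = 0.267 and 0.474). Within the diets r was 0.198 in OBESE and 0.0954 in CTRL libraries (n = 9 each, exact p = 0.236 and 0.935). No adjusted exact p over these 8 values was below 0.57. Because labels were permuted only within groups, these p values concern the relation inside the groups, while r and rho also hold differences between group means. The 18 points may not be independent, since ewes may recur among them.

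**Figure D4:**
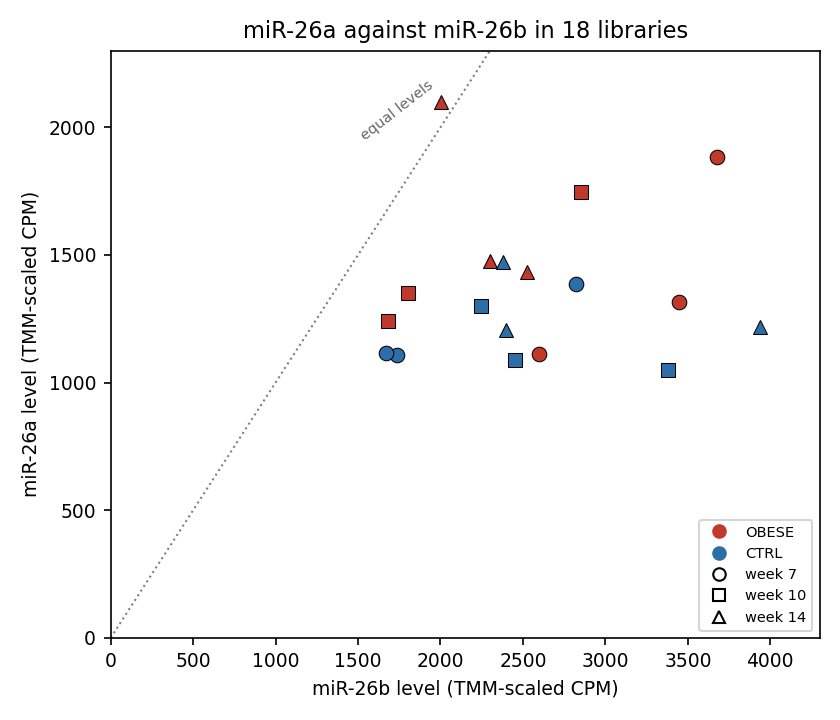
Level of miR-26a (vertical axis) against miR-26b (horizontal axis), both in TMM-scaled CPM, in the 18 libraries, coloured by diet and shaped by week, with a dotted line at equal levels. The points show little relation (r = 0.125 on log2 CPM), and 1 library, OBESE week 14 replicate 2, lies above the line.

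The features most like each member over the 18 libraries were others than its relative. For miR-26a the highest Spearman's rho of log2 CPM were those of unnamed miRNAs 223 and 229 (0.651 each, at 197 CPM each), a pair with near-identical values, and of miR-200c (0.645), a miRNA of epithelial cells at 142 CPM. miR-26b ranked 59th of 167 in likeness to it. For miR-26b they were those of miR-30a-3p (0.676), miR-21 (0.664), a miRNA abundant in many tissues and in platelets, and unnamed miRNA 5 (0.651), while miR-26a ranked 63rd of 167. These likenesses describe 18 libraries that share their scaling and their groups.

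Other miRNAs of fat cells and insulin action were taken from a list of 37, of which 20 were named in the files and all 20 were tested. For the diets averaged over weeks 9 had positive and 11 negative log2 fold changes, with a median of -0.00216, the same as over all 168 features, and 0 were called by edgeR. Without TMM scaling 19 of the 20 were positive, with a median of 0.18 beside 0.16 over all features. miR-30a-5p, of a family that promotes fat cell differentiation in human cells, had the smallest p of the list, at 0.67 (SE 0.175, edgeR adjusted p = 0.113), with 2619 ± 735 CPM in OBESE plasma and 1645 ± 373 CPM in CTRL plasma (SD, 9 libraries each). It was followed by let-7g, of a family that restrains growth and insulin signalling, at -0.21 (SE 0.105, edgeR adjusted p = 0.451), and by miR-29a, which acts on insulin signalling and collagen, at 0.23 (SE 0.133, edgeR adjusted p = 0.487). The value of miR-26a, 0.32, lay between those of miR-30a-5p and miR-29a, and that of miR-26b among the many near 0. At weeks 7, 10 and 14 the list had 11, 11 and 7 positive members of 20 and medians of 0.05, 0.03 and -0.06. Without TMM scaling it had 19, 13 and 15 positive members and medians of 0.30, 0.13 and 0.09. Over all features the unscaled medians were 0.25, 0.09 and 0.15.

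**Figure D5:**
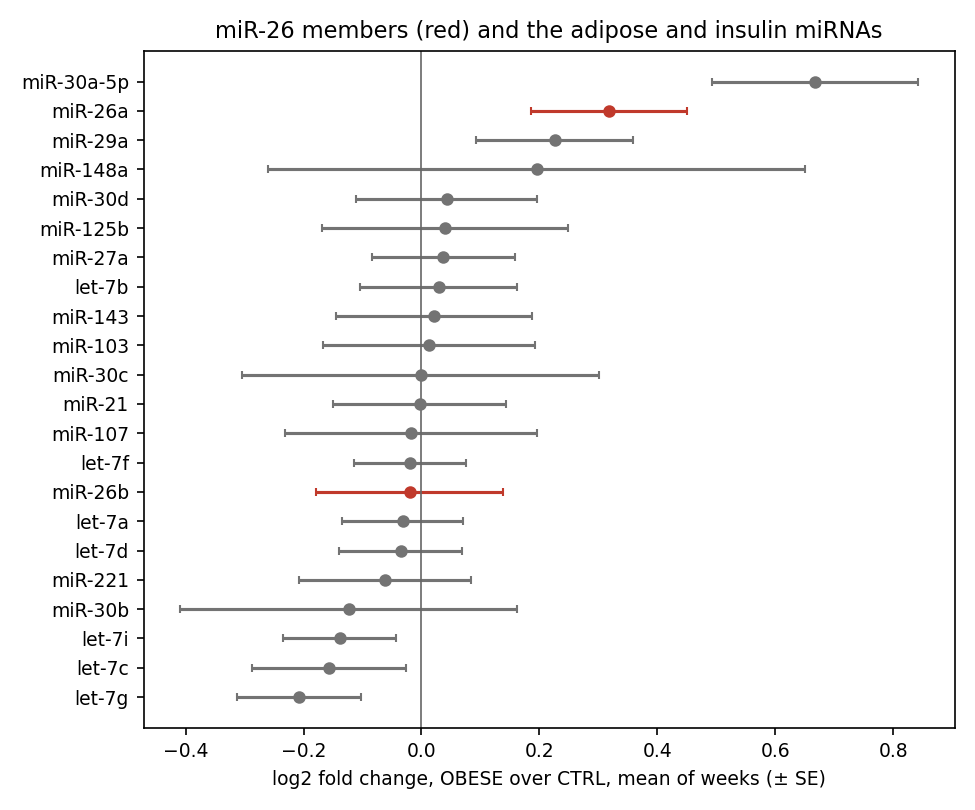
Log2 fold change of OBESE over CTRL averaged over weeks (horizontal axis, ± SE from edgeR) for miR-26a and miR-26b (red) and the 20 tested miRNAs of the adipose and insulin list (grey), ordered by value. miR-26a, at 0.32, is second to miR-30a-5p at 0.67, and miR-26b lies at -0.02; no feature shown passed after adjustment.

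Red blood cell miRNAs, which enter plasma when cells break, lay on the other side of the diet comparison from miR-26a. The 3 named members had negative averaged log2 fold changes with a median of -0.28 (without TMM scaling 1 of 3 was positive and the median was -0.06), and 0 were called by edgeR. Without the pair of CTRL libraries that stood apart, miR-26a had 0.28 (SE 0.152, edgeR unadjusted p = 0.0859) and miR-26b -0.09 (SE 0.163). On the same side as miR-26a lay miR-150 of white blood cells, with an averaged log2 fold change of 0.38 (SE 0.322, 0.49 without TMM scaling). So did miR-194 of liver, with 0.45 (SE 0.265, 0.65 without TMM scaling), and neither was called by edgeR. The platelet list had 2 of 3 positive members and a median of 0.06 (3 of 3 and 0.23 without TMM scaling, beside 0.16 over all features). miR-133 of muscle had -0.51 (SE 0.516, -0.31 without TMM scaling), with weekly values of -1.955, 1.265 and -0.83 at weeks 7, 10 and 14. edgeR called 0 of these. The part of these cells in the values of miR-26a was not tested.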

How the data were processed

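Per the labels' protocols, RNA from 200 µL of plasma was made into libraries with a QIAseq kit and deduplication by molecular identifiers, and read as single reads of 76 nucleotides on an AVITI instrument. DESeq2 1.42, Bowtie 1.3.1 and cutadapt 4.9 appear in the submitters' processing notes, with no role stated. Genome build, annotation and whether the counts are deduplicated were not given in the sources used here. As deposited by the authors, values are raw counts per miRNA. The authors' table and the files per library differed in 0 values.

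Tests used edgeR 4.0.16 in R 4.3.3 (TMM, filterByExpr with a minimum count of 10 and total of 15, glmQLFit and glmQLFTest on 18 libraries and 6 groups), adjusted by Benjamini-Hochberg over 168 features at 0.05, two-sided. Standard errors derive from the F statistic. Ratios and correlations (log2 CPM, prior count 2) were compared by exact permutation. limma 3.58.1 and DESeq2 1.42.0 served as alternatives. The edgeR step was tested on simulated data. Both members and lists were chosen with earlier results of these data known. Besides the members, the named miRNAs are the 3 most like each and its neighbours in level, the 3 list members with the smallest p and all tested markers. Libraries of the same and of different numbers, within and across diets, were compared by their deviations from group means.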

Additional observations from a re-analysis of the deposited data

Results flagged for a closer look

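The diet difference in the log2 ratio of miR-26a to miR-26b was 1.14 higher at week 10 than at week 7 and 1.10 higher at week 14 than at week 7. What drew attention to them were unadjusted exact permutation p values of 0.01 and 0.025. Adjusted over the 6 tests of the ratio between diets, without those within a diet, these were 0.06 and 0.075, and neither passed. With replicate numbers taken as ewes the exact p was 0.1 for both. The test was chosen after the values were seen. At week 7 the ratio averaged 0.44 ± 0.0662 in OBESE and 0.599 ± 0.0952 in CTRL libraries, at week 10 it averaged 0.7 ± 0.0753 in OBESE and 0.444 ± 0.134 in CTRL, and at week 14 it averaged 0.752 ± 0.258 in OBESE and 0.477 ± 0.157 in CTRL (SD, n = 3 each). Among the 9 libraries of each diet, no library lay far enough from the others in miR-26a, miR-26b, their ratio or their summed share to stand out by Dixon's criterion. The nearest was the ratio of 1.05 in OBESE week 14 replicate 2, with 0.748 as the next highest, a gap of 0.45 of the range. The criterion pools the 3 weeks of a diet, so it cannot tell whether a library stands out within its own group.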

How the results depend on the processing

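In 554 alternative fits of the 20 results of miR-26a and miR-26b, 0 passed an adjusted p of 0.05 (lowest 0.179) and 17 turned the sign, while 15 of the 20 results kept their sign in every alternative. Without TMM scaling miR-26b averaged over weeks was 0.12 and miR-26a at CTRL week 10 against week 7 was 0.11, and without the filter on low counts they were 0.00742 and 0.00746. Leaving out 1 library gave -0.12 to 0.0747 for miR-26b averaged over weeks. For miR-26a it gave -0.0421 to 0.30 and -0.18 to 0.0461 at week 10 against week 7 in OBESE and in CTRL, and -0.0304 to 0.32 and -0.17 to 0.29 in the interactions at weeks 10 and 14. By exact permutation within weeks miR-26a averaged over weeks was 0.30 (unadjusted p = 0.0205), a test that treats the weeks as independent. Over all its alternatives that averaged value lay between 0.19 and 0.47. The adjusted p of its edgeR, limma-voom and DESeq2 fits lay between 0.179 and 0.726. The count of features called for the averaged diet difference was 2 with DESeq2, 4 without the filter, and 0 to 2 without 1 library. For the diets at week 14 it was 0 to 1 without 1 library. For the turn of the ratio between weeks 7 and 14, leaving out 1 library gave 0.82 to 1.32 (exact p from 0.015 to 0.055), and 1.12 without both libraries that stood apart. The cause of these shifts was not tested.

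Same-numbered libraries of 1 diet deviated together (r over 0.1 in 16 of 18 pairs, lowest -0.0245). Within a diet 17 of 18 libraries correlated best with their own number, and over all groups 16 of 18. Across diets r was over 0.1 in 14 of 27 same-numbered pairs (median 0.104). For pairs of different numbers across diets it was over 0.1 in 7 of 54 (median -0.0435). These are hints from the data and not the design, and what the number marks was not tested. With the number as a replicate block shared by both diets, edgeR called 0 features in all 10 comparisons. The interactions of miR-26b were then both -1.04 (edgeR unadjusted p = 0.0086 and 0.00858). Such a block also ties OBESE to CTRL libraries, so these values are not paired by ewe. Over all alternative fits the adjusted p of these interactions did not go below 0.351 at week 10 and 0.201 at week 14. With the number taken within each diet the turns of the ratio were 1.14 and 1.10, at an exact p of 0.1 each.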
